A study of Homo sapiens with 10 samples.

Results

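Transcripts of 47 genes of DNA replication and cell division were read across 10 RNA-seq libraries of A549, an established cell line from a human lung adenocarcinoma. They comprise 22 genes of S phase and 25 genes of G2 and mitosis, fixed by name from textbook roles and taken from a table of 33551 rows. All 47 had a row, and all 47 passed the filter on low counts that left 17978 genes for testing. The lowest member count in any library was 471, for CCNE2.

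The lines were labelled wild type for ABCA3 (WT), ABCA3 knockout (KO), ABCA3 L101P, ABCA3 E292V and ABCA3 E690K. ABCA3 is the lipid transporter of surfactant storage organelles. Each line gave an untreated library and a library taken after overnight exposure to VSVG LV-ABCA3:GFP, a lentiviral vector for a fusion of ABCA3 with GFP (multiplicity of infection 20). All 10 cultures were grown in DMEM with serum. With 1 library for each line and treatment, every genotype is 1 line, and the labels do not say whether a line was a clone or a pool. Differences between lines therefore cannot be told apart from differences between cultures, and in bulk RNA more cells in a cycle phase cannot be told apart from more transcript per cell.

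Cells license replication origins in G1, when CDC6 and CDT1 load the MCM2 to MCM7 helicase ring, and they copy DNA in S phase with polymerases, the sliding clamp PCNA and a supply of nucleotides. The E2F transcription factors drive most genes of that program once cyclin D and cyclin E kinases have inactivated the retinoblastoma family proteins. Genes of G2 and mitosis, among them cyclin B, CDK1, the mitotic kinases and the spindle motors, are switched on later. Their promoters often carry CHR and CCAAT elements. Through the CHR the DREAM complex represses them in resting cells, and B-MYB with FOXM1 activates them. A549 cells proliferate in culture, and loss of the CDKN2A locus is a known feature of the line.

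The sequences upstream of the members are shown first, because the S-phase and mitotic genes differ in how often they carry certain words there. RefSeq entries on GRCh38.p14 were matched for 40 of the 47 members, 19 of S phase and 21 of mitosis, and the 250 bases before each transcription start were searched on both strands. Entries for MCM4, MCM5, CCNE2, AURKA, TTK, BIRC5 and TPX2 were not matched. The words TTTCCCGC, TTTCGCGC, TTTGCCGC and TTTGGCGC, which are of the E2F type, occurred in 10 of 19 S-phase promoters (52.6%), in 1 of 21 mitotic promoters (4.76%) and in 2.79% of all 27305 promoters. The CHR words TTTGAA and TTCGAA occurred in 2 of the 19 (10.5%), in 12 of the 21 (57.1%) and in 14.6% of all. CCAAT was found in 68.4% of the S-phase, 81% of the mitotic and 33% of all promoters, and CHR together with CCAAT in 10.5%, 47.6% and 5.24%. Overlapping matches of different words were each counted, and a match is a description of letters and not of binding.

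Of the matched windows, 9 held no annotated exon of GENCODE release 29. From these, MKI67, KIF11 and CDK1 for the mitotic genes and MCM6 and POLA1 for the S-phase genes are shown as examples that carry the words, chosen with their matches known. Capitals mark the words above or their reverse complements. MKI67 lies on the minus strand (chr10:128126424-128126673), KIF11 and CDK1 on the plus strand (chr10:92592880-92593129 and chr10:60778081-60778330), MCM6 on the minus strand (chr2:135876444-135876693) and POLA1 on the plus strand (chrX:24693668-24693917).
MKI67: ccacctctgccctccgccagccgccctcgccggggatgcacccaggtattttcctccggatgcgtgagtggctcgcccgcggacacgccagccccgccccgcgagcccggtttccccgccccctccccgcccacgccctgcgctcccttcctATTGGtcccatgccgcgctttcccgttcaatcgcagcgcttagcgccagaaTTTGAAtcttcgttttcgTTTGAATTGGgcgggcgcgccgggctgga
KIF11: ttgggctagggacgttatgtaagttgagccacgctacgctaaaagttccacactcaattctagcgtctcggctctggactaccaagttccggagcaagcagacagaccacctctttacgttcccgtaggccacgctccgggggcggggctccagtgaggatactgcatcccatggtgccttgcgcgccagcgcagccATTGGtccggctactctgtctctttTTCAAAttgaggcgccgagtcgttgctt
CDK1: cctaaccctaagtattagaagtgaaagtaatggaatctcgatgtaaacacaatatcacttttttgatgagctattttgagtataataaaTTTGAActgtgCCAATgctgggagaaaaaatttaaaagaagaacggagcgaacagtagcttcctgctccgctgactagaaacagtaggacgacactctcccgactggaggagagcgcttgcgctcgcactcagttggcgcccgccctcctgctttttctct
MCM6: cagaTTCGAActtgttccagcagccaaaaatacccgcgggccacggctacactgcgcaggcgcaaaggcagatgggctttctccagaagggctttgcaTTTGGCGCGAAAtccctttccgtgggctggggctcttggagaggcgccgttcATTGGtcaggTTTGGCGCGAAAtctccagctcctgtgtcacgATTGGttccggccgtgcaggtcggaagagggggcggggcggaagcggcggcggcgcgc
POLA1: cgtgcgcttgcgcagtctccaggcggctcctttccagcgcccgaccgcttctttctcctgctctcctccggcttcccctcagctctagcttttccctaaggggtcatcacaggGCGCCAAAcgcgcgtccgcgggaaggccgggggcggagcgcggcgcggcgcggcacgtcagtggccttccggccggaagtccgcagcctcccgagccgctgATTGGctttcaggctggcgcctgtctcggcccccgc
MKI67 carries 2 CHR words and 2 CCAAT boxes, and KIF11 and CDK1 carry 1 of each. MCM6 holds 4 overlapping matches of E2F-type words in a pair of stretches, 1 CHR word and 2 CCAAT boxes, and POLA1 holds 1 E2F-type word and 1 CCAAT box. The other 4 windows without an exon are not printed. Among the mitotic genes, CDC25C had 0 of any kind, and CENPF had 3 CCAAT boxes and 0 CHR words. Among the S-phase genes, GINS1 had 1 CCAAT box and RRM1 had 1 CHR word and 1 CCAAT box, both with 0 E2F-type words. NUSAP1 was the mitotic gene with an E2F-type word.

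Library totals lay between 59430095 counts (untreated L101P) and 96811421 counts (transduced L101P). Levels are given as CPM, the share of a library total that a gene takes, with the totals scaled by TMM. Of the values from 1 to 10, 81.4% were even, the form a table takes when both mates of a pair are counted, so 95% Wilson intervals were taken on the count divided by 2. The widest half-width of a gene was 1.16% to 12.8% of its level, with a median of 3.01%, which covers counting error only. The 9 epithelial and A549 markers all had counts and summed to 14845 to 23530 CPM. The leukocyte markers summed to 1.25 to 6.54 CPM, with CD3E at 0, the endothelial markers to 0.097 to 1.12 CPM and the fibroblast markers to 16.6 to 120 CPM.

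The vector and its target were read as a check of the labels. The EGFP row was at 69.7 and 151 CPM in the libraries labelled untreated and transduced of WT, 37.9 and 0.050 in KO, 1.01 and 36.9 in L101P, 20.2 and 66.0 in E292V, and 16.5 and 18.5 in E690K. It went against the labels in the KO pair, differed little in the E690K pair, and was well above 0 in the untreated libraries of WT, E292V and E690K. ABCA3 was at 356 and 602 CPM in WT, 600.2 and 26.0 in KO, 1151 and 922 in L101P, 965 and 1021 in E292V, and 900.2 and 994 in E690K. The library labelled untreated KO thus had more ABCA3 than untreated WT, against its label, and untreated L101P had more than transduced L101P. Every direction that the text draws from the vector, and every difference of KO, rests on these labels.

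**Figure D1:**
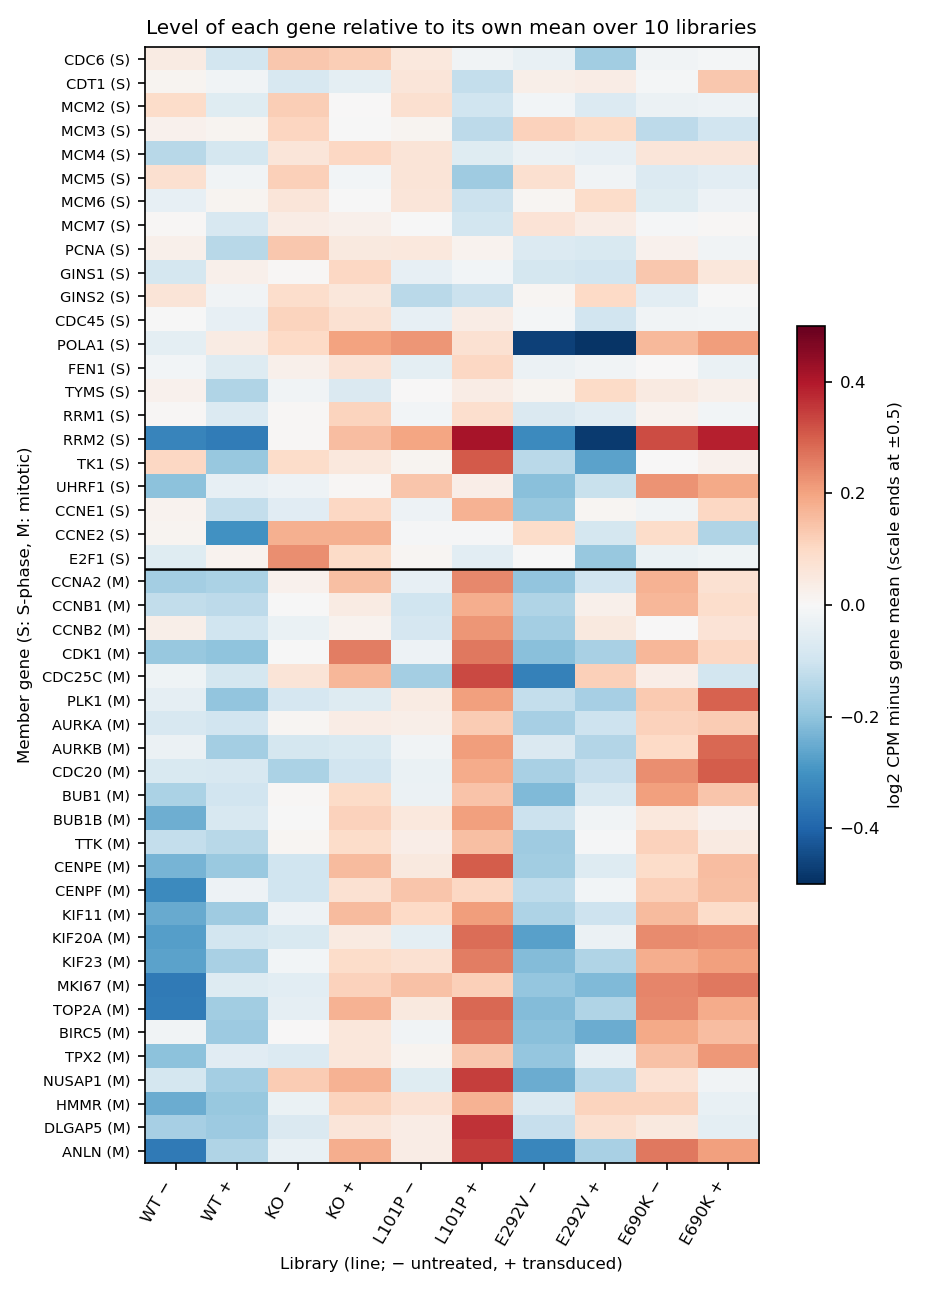
Levels of the 47 genes in the 10 libraries, as log2 CPM minus the mean of the gene over the libraries (color, red above and blue below), with S-phase genes above the black line and mitotic genes below it. The mitotic rows are mostly blue in both WT, both E292V and the untreated KO columns (0 to 7 of 25 above the mean) and mostly red in the transduced KO, transduced L101P and both E690K columns (21 to 25), whereas among the S-phase rows RRM2 and POLA1 stand out.

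The S-phase genes varied little over the 10 libraries. The ratio of the highest to the lowest library ranged from 1.12 to 1.86 with a median of 1.19. It was 1.23 to 1.63 with a median of 1.38 for the mitotic genes, beside a median of 1.31 for 9821 tested genes of the same range of CPM. Per kilobase of exon, mean levels spanned 1.81 to 249 CPM per kb (median 31.4) for S-phase genes and 6.74 to 145 CPM per kb (median 41.3) for mitotic genes.

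Each edited line was compared with WT by fitting line and vector to the 10 libraries, so that the error measures how far libraries depart from additive effects. RRM2, the small subunit of ribonucleotide reductase, was higher than WT in KO, L101P and E690K, UHRF1 was higher in E690K, and POLA1 was lower in E292V. No other S-phase gene passed an edgeR adjusted p of 0.05. In KO, 1 of 22 S-phase and 0 of 25 mitotic genes passed, against 0.807% of all genes higher and 0.99% lower. The S-phase and mitotic counts were 1 and 7 in L101P (2.33% of all genes higher, 1.61% lower), 1 and 0 in E292V (0.295% higher, 0.756% lower) and 2 and 11 in E690K (3.05% higher, 2.33% lower). All these calls were higher than WT except that of POLA1.

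**Figure D2:**
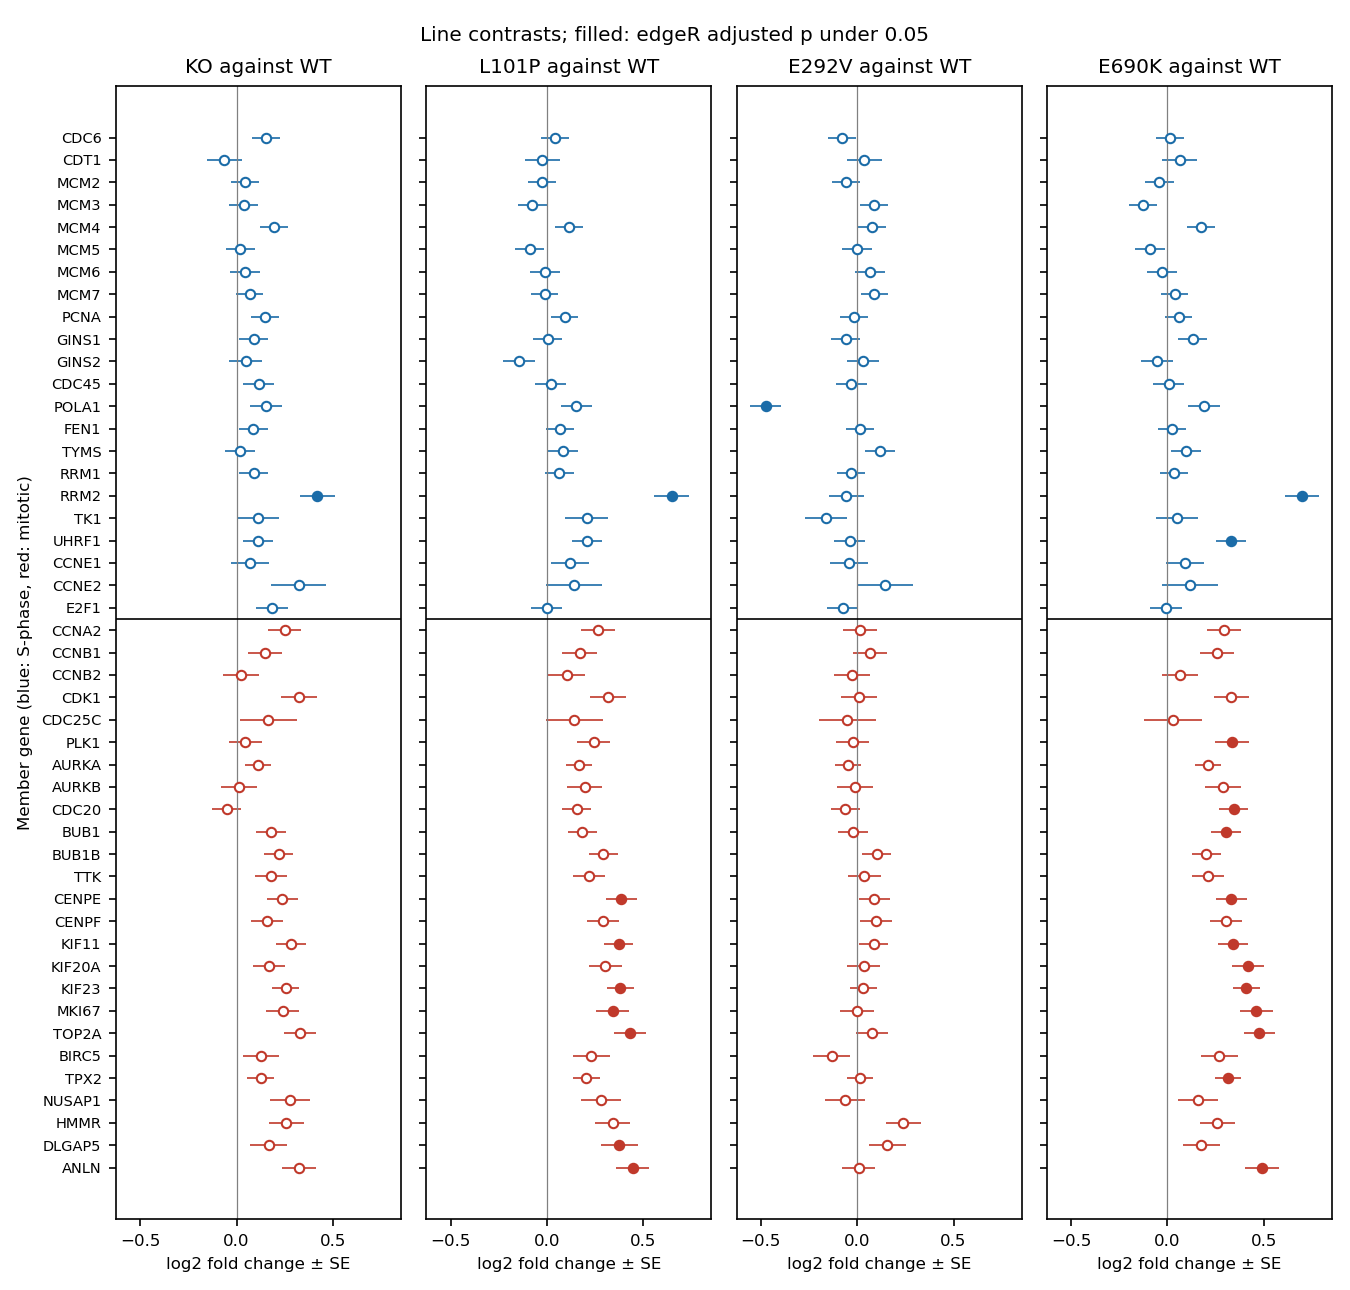
Log2 fold change against WT with its standard error for each gene in KO, L101P, E292V and E690K, S-phase genes in blue and mitotic genes in red, filled where the edgeR adjusted p was under 0.05. Filled mitotic points number 7 in L101P and 11 in E690K, and the median of the mitotic genes was 0.28 and 0.30 in these lines and 0.01 in E292V.

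Licensing genes gave no call. CDC6, the ATPase that loads MCM rings, was at 159.5 and 146 CPM in untreated and transduced WT, 170.2 and 169 in KO, 161 and 153 in L101P, 151 and 137 in E292V, and 153 and 154 in E690K. CDT1, its partner, lay between 42.3 and 50.3 CPM in the 10 libraries. The levels of the lines overlapped or lay close for both genes, and neither passed in any line contrast (edgeR adjusted p 0.365 to 0.958).

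The 6 helicase subunits likewise gave no call in any line (edgeR adjusted p 0.21 to 0.999). MCM2 was at 193 and 174 CPM in untreated and transduced WT, 197 and 181 in KO, 191 and 169 in L101P, 179 and 173 in E292V, and 177 and 178 in E690K. MCM5 was at 246 and 230.2 CPM in WT, 253 and 230.2 in KO, 243 and 205 in L101P, 246 and 229.9 in E292V, and 222 and 224 in E690K. The transduced L101P library held the lowest level of 5 of the 6 subunits, the exception being MCM4, whose lowest level was in untreated WT.

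At the fork, PCNA, the sliding clamp of the polymerases, ranged from 332 CPM in transduced WT to 401 CPM in untreated KO and passed in no contrast. POLA1, the catalytic subunit of polymerase alpha, differed. Its levels were 66.6 and 70.7 CPM in untreated and transduced WT, 73.6 and 79.1 in KO, 80.2 and 72.5 in L101P, 49.8 and 49.0 in E292V, and 77.0 and 79.5 in E690K. Both E292V libraries lay below the other 8 without overlap of the counting intervals, whose upper limit was 52.0 CPM in untreated E292V and whose lowest limit among the others was 64.2 CPM in untreated WT. In E292V against WT, POLA1 had a log2 fold change equal to -0.48 (SE 0.08, edgeR adjusted p 0.0176). The call was lost without the E690K pair and without any single WT or E292V library (edgeR adjusted p up to 0.194), with fold changes from -0.52 to -0.42 over all settings.

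POLA1 is the only member on chromosome X (24693919 to 24996986, GENCODE release 29 on GRCh38). Of the 8 genes within 1 Mb of it that had an average of at least 1 in log2 CPM, POLA1 included, 8 were below 0 in E292V against WT. Of all 17978 genes tested, 9016 were below 0. PDK3, a pyruvate dehydrogenase kinase, was at -0.83 in log2 (edgeR adjusted p 0.0201), SAT1, a spermidine acetyltransferase, -0.63 (0.00884), APOO -0.60 (0.0353) and ACOT9 -0.45 (0.0353). KLHL15, EIF2S3 and ZFX had -0.61, -0.34 and -0.21 and did not pass (edgeR adjusted p 0.0743, 0.0874 and 0.515). SAT1 and APOO were also below WT in the other lines, at -0.51, -0.50 and -0.49 and at -0.31, -0.19 and -0.28 in KO, L101P and E690K. In the same order PDK3 was at -0.09, -0.02 and -0.26 and ACOT9 at 0.05, 0.09 and 0.20. KLHL15 was at -0.13, 0.03 and 0.08, EIF2S3 at -0.10, -0.08 and 0.02, and ZFX at -0.09, 0.06 and 0.21. The part of this neighbourhood in the POLA1 difference was not tested.

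In nucleotide supply, RRM2 had the widest range of all S-phase genes. It was at 96.6 and 95.2 CPM in untreated and transduced WT, 122 and 135 in KO, 139 and 162 in L101P, 97.2 and 87.0 in E292V, and 152 and 159 in E690K. The 6 libraries of KO, L101P and E690K lay above the 4 of WT and E292V. The log2 fold changes against WT were 0.42 in KO (SE 0.09, edgeR adjusted p 0.0364), 0.65 in L101P (SE 0.09, 0.00262) and 0.70 in E690K (SE 0.09, 8.4e-04), or 1.34, 1.57 and 1.62 times. The L101P and E690K calls held under the 20 settings tried. The KO call held under 11 of 20 and was lost without the E690K pair or either of its libraries, without either WT or KO library, with the KO labels exchanged and without the vector term (edgeR adjusted p up to 0.54). AC007240.1 shares 20.2% of the RRM2 exon bases on the same strand, and 3 pseudogenes are named for RRM2, so its level is uncertain as far as reads were shared.

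RRM1, the large subunit of the same enzyme, ranged from 203 to 231 CPM and passed nowhere. TYMS, thymidylate synthase, lay between 94.5 CPM in transduced WT and 112 CPM in transduced E292V. TK1, the salvage thymidine kinase, was at 313 and 255 CPM in untreated and transduced WT, 311 and 303 in KO, 294 and 360.3 in L101P, 266 and 242 in E292V, and 291.7 and 296 in E690K. Neither TYMS nor TK1 passed in a line contrast.

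Among genes of G1/S control, E2F1, the transcription factor itself, ranged from 68.1 CPM in transduced E292V to 91.1 CPM in untreated KO. CCNE1, cyclin E1, lay between 35.0 and 45.0 CPM, and CCNE2, the scarcest member, between 6.42 and 8.96 CPM. These 3 passed in no line contrast, and 37.1% of the CCNE2 exon bases lie opposite INTS8. UHRF1, which recruits the maintenance DNA methyltransferase to replicated DNA, was at 105 and 117 CPM in untreated and transduced WT, 119 and 121 in KO, 133 and 124 in L101P, 104 and 112 in E292V, and 141 and 138 in E690K. The E690K libraries were the highest, with 0.33 in log2 against WT (SE 0.08, edgeR adjusted p 0.0309). It did not pass without the KO pair or either KO library, without untreated WT, without either E690K library and with the KO labels exchanged (edgeR adjusted p up to 0.313).

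**Figure D3:**
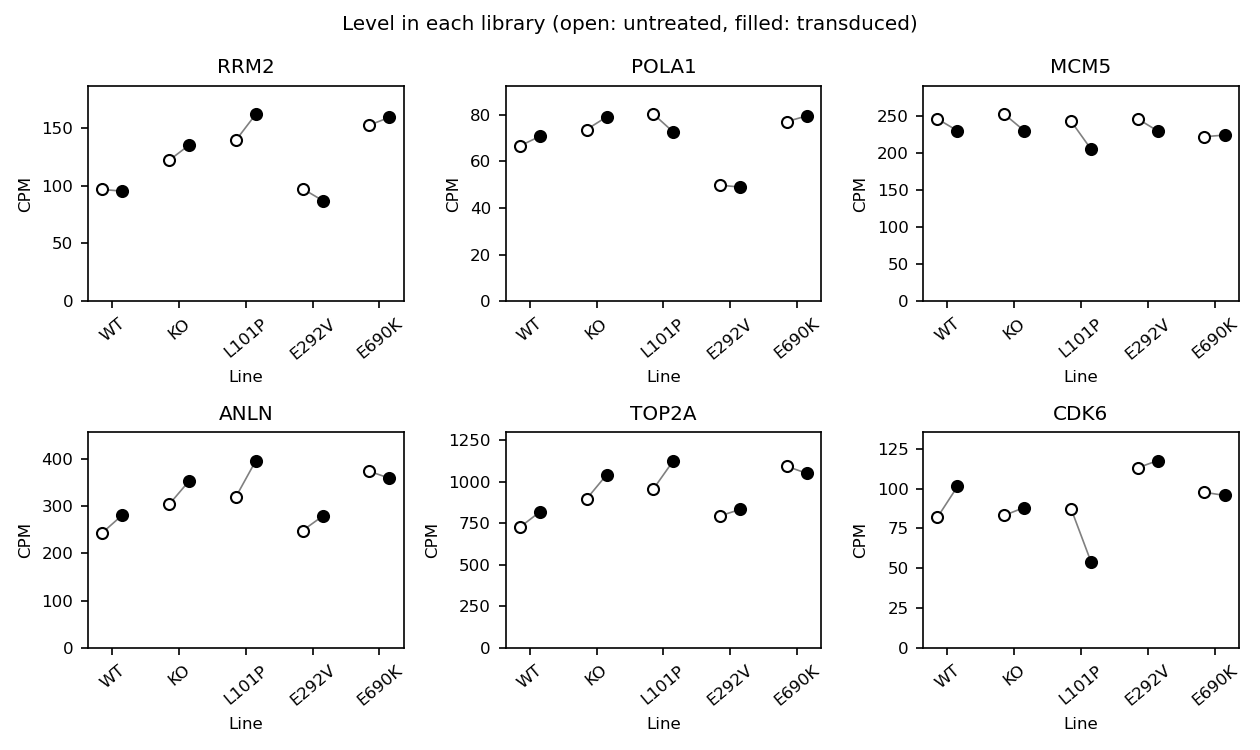
Level in CPM of RRM2, POLA1, MCM5, ANLN, TOP2A and CDK6 in the 10 libraries (vertical axes from 0; open circles untreated, filled circles transduced, a line joining the libraries of a pair). RRM2 is at 122 to 162 CPM in KO, L101P and E690K and at 87.0 to 97.2 CPM in WT and E292V, POLA1 is at 49.8 and 49.0 CPM in E292V, and CDK6 is at 54.0 CPM in transduced L101P.

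The mitotic genes were above WT in both L101P and E690K for 25 of 25, with median log2 fold changes of 0.28 and 0.30, where the median over all tested genes was -0.01 and -0.02. In KO, 24 of 25 were above WT with a median of 0.18, and in E292V 15 of 25 with a median of 0.01. The S-phase medians were 0.09, 0.05, -0.02 and 0.04 in KO, L101P, E292V and E690K, with 21, 14, 9 and 16 of 22 genes above WT. Of all 17978 genes tested, 8574, 8556, 8962 and 8515 were above WT in the same order. The 4 comparisons share the WT libraries. Both libraries of the line lay above both WT libraries for 19 mitotic and 11 S-phase genes in KO (22% of all genes), 22 and 4 in L101P (20.4%), 4 and 4 in E292V (18.9%) and 23 and 6 in E690K (23.8%). Both lay below for 1 and 1 in KO (23.7%), 0 and 1 in L101P (23.3%), 3 and 1 in E292V (20.3%) and 0 and 2 in E690K (27.4%).

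Of the 5 motor and kinetochore genes, 3 passed in L101P and 4 in E690K. KIF23, the cytokinesis motor of the central spindle, was at 198 and 214 CPM in untreated and transduced WT, 237 and 255 in KO, 252 and 285 in L101P, 206 and 215 in E292V, and 271 and 276 in E690K. Its log2 fold change was 0.38 in L101P (SE 0.07, edgeR adjusted p 0.0123) and 0.41 in E690K (SE 0.07, 0.00540). KIF11, the bipolar spindle motor, was at 155 and 163 CPM in WT, 181 and 206 in KO, 198 and 214 in L101P, 166 and 172 in E292V, and 206 and 197 in E690K. For both motors the libraries of KO, L101P and E690K lay above those of WT, and for KIF11 those of E292V did too. KIF11 passed in L101P (0.37, edgeR adjusted p 0.0190) and E690K (0.34, 0.0232). CENPE, which carries chromosomes to the metaphase plate, was higher by 0.39 and 0.33 in these lines (edgeR adjusted p 0.0219 and 0.0339). KIF20A, a cytokinesis motor, passed in E690K with 0.42 (edgeR adjusted p 0.0131) and had 0.30 in L101P without passing. CENPF passed in no line and ranged from 280.2 CPM in untreated WT to 387 CPM in transduced E690K.

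Chromosome and cytokinesis proteins included the largest mitotic differences from WT. ANLN, the actin-binding scaffold of the cleavage furrow, was at 244 and 281 CPM in untreated and transduced WT, 303 and 353 in KO, 319 and 396 in L101P, 248 and 279 in E292V, and 374 and 359 in E690K. Its log2 fold change was 0.44 in L101P and 0.49 in E690K (SE 0.09 in each, edgeR adjusted p 0.0154 and 0.00638). TOP2A, the topoisomerase that untangles sister chromatids, was at 726 and 819 CPM in WT, 897 and 1042 in KO, 956 and 1127 in L101P, 795 and 833 in E292V, and 1092 and 1050.0 in E690K. It passed in L101P (0.43, edgeR adjusted p 0.0143) and E690K (0.48, 0.00549). MKI67, the surface coat protein of mitotic chromosomes, was at 609 and 745 CPM in WT, 752 and 844 in KO, 862 and 848 in L101P, 681 and 668 in E292V, and 924 and 935 in E690K. It passed in L101P (0.34, edgeR adjusted p 0.0493) and E690K (0.46, 0.00895). The libraries of KO, L101P and E690K lay above both of WT for these 3 genes, while those of E292V overlapped WT.

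Of the other proteins of that role, DLGAP5, a spindle microtubule protein, passed in L101P (0.38, edgeR adjusted p 0.0476), with 147 CPM in transduced L101P above the 100.6 to 120.6 CPM of the other libraries. TPX2, the activator of AURKA on the spindle, passed in E690K (0.31, edgeR adjusted p 0.0207). BIRC5, survivin, was at 241 and 215 CPM in WT, 245 and 253 in KO, 241 and 295 in L101P, 211 and 206 in E292V, and 278 and 272 in E690K, and passed in no line.

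Checkpoint and kinase genes passed in E690K and in no other line contrast. CDC20, the activator of the anaphase-promoting complex, was at 211 and 211 CPM in untreated and transduced WT, 199 and 208 in KO, 217 and 253 in L101P, 199 and 205 in E292V, and 261 and 274 in E690K. Both E690K libraries were the highest, and the fold change was 0.34 (SE 0.08, edgeR adjusted p 0.0201). BUB1, a spindle checkpoint kinase, was higher by 0.30 (edgeR adjusted p 0.0402) and PLK1, the polo-like kinase, by 0.33 (0.0436). AURKA, the spindle pole kinase, was at 171 and 169 CPM in WT and 196 and 197 in E690K and did not pass. Whether E690K and L101P differ in these genes was not tested.

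Cyclin B1 and CDK1, which form the kinase that starts mitosis, did not pass in any line. CCNB1 was at 275 and 273 CPM in untreated and transduced WT, 298 and 308 in KO, 279 and 339 in L101P, 269.5 and 305 in E292V, and 336 and 318 in E690K. CDK1 was at 126 and 125 CPM in WT, 144 and 172 in KO, 142 and 173 in L101P, 125 and 129 in E292V, and 162 and 155 in E690K. For CDK1 the libraries of KO, L101P and E690K lay above those of WT. Of the 5 genes of mitotic cyclins, CDK1 and its activating phosphatase, 0 passed in the 4 contrasts (edgeR adjusted p 0.0592 to 0.988).

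These counts depended on single libraries. The share of all genes called in each setting is not given here. A move of the members therefore cannot be told apart from a move of all genes. The 13 members called in E690K were 4 and 8 without untreated and transduced WT, 1 and 5 without untreated and transduced E690K, 8 without the KO pair, and 20 without the L101P pair or either of its libraries. The 8 called in L101P were 1 and 2 without untreated and transduced WT, 18 without untreated L101P and 5 without the E690K pair. The 1 called in KO became 8 without the L101P pair or either of its libraries. With the labels of the KO pair exchanged, the numbers were 6 in E690K, 2 in L101P and 0 in KO. In E690K, the KIF23 and TOP2A calls held under 19 of 20 settings, ANLN under 18, MKI67 under 17, CDC20 and KIF20A under 16, KIF11 under 15, TPX2 under 13, PLK1 under 12, BUB1 under 11 and CENPE under 10. All 11 were lost without untreated E690K. In L101P, KIF23 held under 18, KIF11 and TOP2A under 17, ANLN under 16, CENPE under 14, and MKI67 and DLGAP5 under 8. Those 7 were lost without untreated WT.

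**Figure D4:**
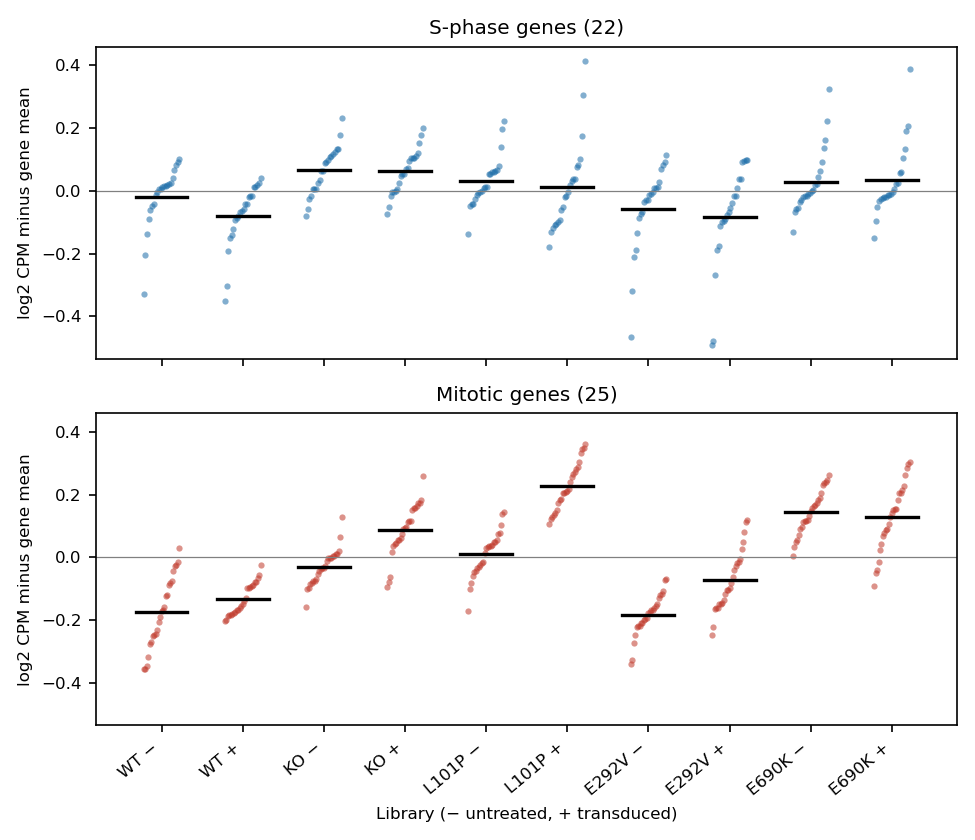
Deviation of each gene from its own mean over the 10 libraries in log2 CPM, for 22 S-phase genes (top) and 25 mitotic genes (bottom), with a bar at the mean of the genes in each library. The mitotic mean runs from -0.18 in untreated E292V to 0.23 in transduced L101P, and the S-phase mean from -0.08 to 0.07.

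Library by library, the mitotic level was lowest in untreated E292V (mean deviation -0.18, SD over genes 0.07) and untreated WT (-0.17, SD 0.11). It was -0.13 in transduced WT, -0.07 in transduced E292V, -0.03 in untreated KO, 0.01 in untreated L101P, 0.09 in transduced KO, 0.13 and 0.14 in transduced and untreated E690K and 0.23 in transduced L101P. All 25 mitotic genes were above their own mean in transduced L101P and in untreated E690K, and 0 in transduced WT and untreated E292V. The S-phase level was highest in untreated KO (0.07). It was 0.06 in transduced KO, 0.03 in untreated L101P and both E690K libraries, and 0.01 in transduced L101P. In untreated and transduced libraries it was -0.02 and -0.08 in WT and -0.06 and -0.08 in E292V. The S-phase means of WT and E292V were thus also the lowest, with an SD over genes of 0.07 to 0.16 in the libraries. Among KO, L101P and E690K the S-phase order differed from the mitotic one. Transduced L101P held the highest level of 18 of the 25 mitotic genes and transduced E690K that of 6.

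The transduced libraries were then compared with the untreated ones over the 5 pairs. Of the 47 members, 0 passed in edgeR, with a smallest adjusted p of 0.449 and 7 with an unadjusted p under 0.05, and 0 passed in the DESeq2 Wald test. Over all genes 0% passed in edgeR, where 1236 had an unadjusted p under 0.05, and 118 of 17978 passed in the DESeq2 Wald test. All 25 mitotic genes had a vector effect above 0 on the log2 scale, from 0.02 to 0.17 with a median of 0.09. Of the 22 S-phase genes 8 had one above 0, with a median of -0.01, and of all genes tested 9048 of 17978. Of 50 other mitotic genes, read further below, 40 had one above 0 and 10 below, with a median of 0.05. Genes of a list share the same 10 libraries and are not replicates.

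The 5 pairs differed in their values. The median change of the mitotic genes within a pair, transduced minus untreated, was 0.01 for WT (13 of 25 above 0), 0.12 for KO (25 of 25) and 0.23 for L101P (23 of 25). It was 0.11 for E292V (21 of 25) and -0.03 for E690K (10 of 25). The S-phase medians were -0.06, -0.01, -0.05, -0.02 and 0.01 in the same order of lines. CDC25C, the phosphatase that activates CDK1, had the largest mitotic change in 2 lines, from 19.9 to 28.1 CPM in L101P (0.50 in log2) and from 17.7 to 24.3 CPM in E292V (0.46). The largest mitotic change was that of CENPF in WT (0.29), CDK1 in KO (0.26) and AURKB in E690K (0.19). Among S-phase genes it was that of CCNE2 in WT (-0.32) and E690K (-0.24), CCNE1 in KO (0.16) and E292V (0.20), and TK1 in L101P (0.29). Each is a difference between single libraries and has no replicate error. With the labels of the KO pair exchanged, which turns its changes around, 24 of 25 mitotic genes had a vector effect above 0, with a median of 0.05.

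**Figure D5:**
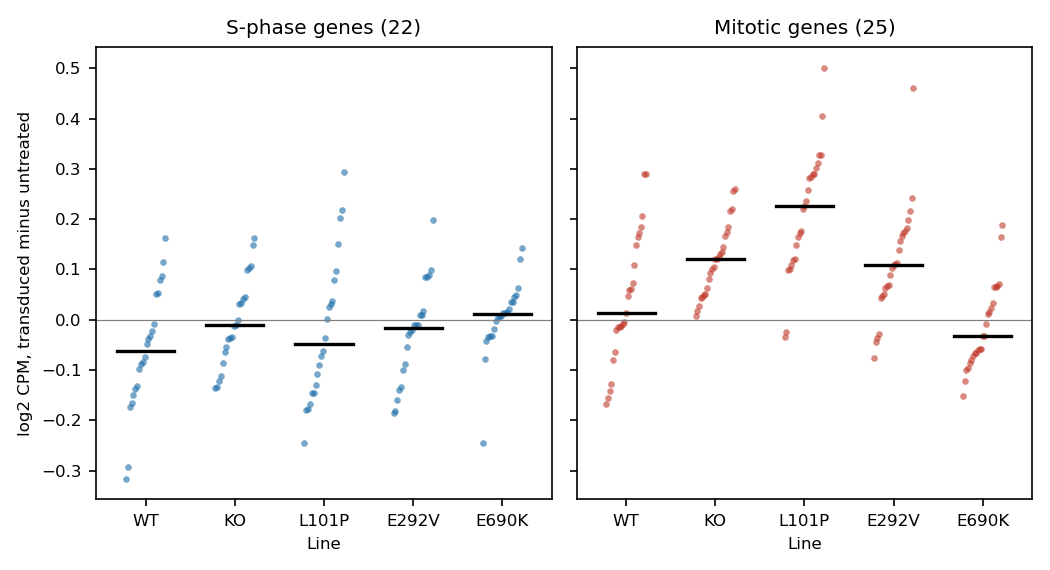
Transduced minus untreated library in log2 CPM for each S-phase (left) and mitotic gene (right) in the 5 lines, with a bar at the median of each line. The median of the mitotic genes runs from -0.03 in E690K to 0.23 in L101P, and that of the S-phase genes from -0.06 to 0.01.

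Whether the vector acted otherwise in a single line than in the other 4 was tested with interaction terms over 19236 genes. Of the members, 0 passed in the 5 edgeR tests, where the share of all genes called was 0%, 0.0052%, 2.39%, 0.0052% and 0% in the order WT, KO, L101P, E292V, E690K. An unadjusted p under 0.05 in edgeR was reached by 4, 0, 8, 0 and 1 of the 47 members. Of all 19236 genes, 608, 311, 2880, 733 and 452 reached it in the same order. In L101P the mitotic genes had a median interaction of 0.17, with 22 of 25 above 0, and in E690K a median of -0.16, with 2 of 25 above 0. With the KO labels exchanged the medians were 0.23 and -0.08, and that in KO went from 0.03 (16 of 25 above 0) to -0.20 (0 of 25). Across the 25 mitotic genes, Pearson's r of the interaction with log2 exon length was 0.68 in WT, 0.56 in KO and -0.65 in L101P, a description of genes that share libraries, and the L101P median was 0.15 with a trend over exon length removed from all genes. NUSAP1, a spindle microtubule protein, was nearest to the threshold in L101P (0.40, SE 0.11, edgeR adjusted p 0.0532), followed by TK1 (0.40, SE 0.12, 0.0680). In L101P 1 member passed with size factors from DESeq2, and 2 passed in the DESeq2 Wald test, without a filter on low counts and without the E292V pair. NUSAP1 shares 62.2% of its exon bases with the same-strand annotation AC087721.2.

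Some genes outside the cycle also differed between the lines. The 9 epithelial and A549 markers summed to 17314 and 15907 CPM in untreated and transduced WT, 17915 and 19646 in KO, 18135 and 23530 in L101P, 15787 and 14845 in E292V, and 17002 and 16483 in E690K. Against WT, 2 of the 9 passed higher in KO, 4 in L101P and 2 in E690K, and 1 passed lower in E292V. In E690K 4 of the 9 were above WT and 5 below, with a median of -0.07. KRT19, an epithelial keratin, was at 137 and 138 CPM in WT, 207 and 305 in KO, 203 and 473 in L101P, 78.6 and 61.6 in E292V, and 281 and 279 in E690K. The 7 fibroblast markers, which were led by COL1A1, summed to 28.5 and 47.2 CPM in WT, 76.1 and 120 in E292V, and 16.6 to 35.6 in the other 6 libraries. COL1A1 was at 72.3 and 116 CPM in E292V and higher than WT there (1.42, edgeR adjusted p 0.0214), and LUM was higher in E690K (1.02, 0.0371). Of the 5 fibroblast markers tested, 2 were above WT and 3 below in E690K, with a median of -0.42. The part of these genes in the mitotic differences between lines was not tested.

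The transduced L101P library differed further. KRT19 (1.16), KRT8 (0.62), KRT18 (0.61) and AKR1C1 (0.44), of the 9 epithelial and A549 markers, had higher interactions in L101P (edgeR adjusted p 4.4e-04 to 0.0470), and COL1A1 had a lower one (-1.16, edgeR adjusted p 0.00231). CDK6, the cyclin D kinase of G1, went from 87.5 to 54.0 CPM across the L101P pair, against 82.0 to 101.3 in WT, 83.2 to 88.1 in KO, 113 to 118 in E292V and 97.7 to 95.7 in E690K. Its interaction in L101P was -0.80 (SE 0.12, edgeR adjusted p 4.8e-04), and the call held under the 10 settings tried. The share of these differences in the mitotic values of that library was not tested.

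Further genes of the same programs were read from lists of textbook members. Of 50 other mitotic genes, the numbers that passed in KO, L101P, E292V and E690K were 1, 7, 0 and 14, all higher, with medians of 0.15, 0.24, -0.01 and 0.23. The share of all genes called higher was 0.807%, 2.33%, 0.295% and 3.05% in the same order. The calls with the smallest adjusted p in L101P were CKAP2L (0.44), HJURP, the chaperone of centromeric histone (0.37), SMC4, a condensin subunit (0.35), and CCNF, cyclin F (0.37), with edgeR adjusted p of 0.0143 to 0.0316. In E690K they were ESPL1, separase (0.43), KPNA2 (0.35), SMC4 (0.35) and KIF14 (0.35), with edgeR adjusted p of 0.00628 to 0.0165, and HJURP was the call in KO (0.38, 0.0271). Of 46 other S-phase genes, 1 passed in KO (MCM8, 0.33), 1 in L101P (BRCA1, 0.32), 0 in E292V and 1 in E690K (DSCC1, 0.35), with edgeR adjusted p of 0.0368, 0.0458 and 0.0486. Their medians were 0.12, 0.05, 0.03 and 0.04, and 1 call among 46 genes is close to the shares of all genes given above. With the vector, 0 genes of either list passed in edgeR, where 6 of the mitotic and 2 of the S-phase genes had an unadjusted p under 0.05.

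Genes that brake or admit cells to S phase were read from 2 further lists. Of 10 tested braking genes (CDK inhibitors, retinoblastoma family and BTG genes), 1, 2, 0 and 0 passed in KO, L101P, E292V and E690K. Of 6 tested G1 genes (cyclins, their kinases and MYC), 0, 1, 0 and 1 passed. The share of all genes called was 1.8%, 3.94%, 1.05% and 5.38% in the same order. CDKN1A, the p21 inhibitor, ranged from 124 to 166 CPM and CDKN1B, the p27 inhibitor, from 33.1 to 46.9 CPM, and neither passed in a line contrast (edgeR adjusted p 0.109 to 0.991). CDKN2A and CDKN2B had 0 counts in the 10 libraries. RBL1, the p107 pocket protein, was higher in KO (0.47, edgeR adjusted p 0.0189) and L101P (0.44, 0.0176), and BTG1, an antiproliferative factor, was higher in L101P (0.46, 0.0204). CCND1, cyclin D1, was at 555 and 572 CPM in untreated and transduced WT, 639.9 and 635 in KO, 746 and 661 in L101P, 599 and 573 in E292V, and 735 and 764 in E690K. It passed in L101P (0.32, edgeR adjusted p 0.0395) and E690K (0.41, 0.00838), under 9 and 17 of 20 settings, and both calls were lost without untreated WT. The RBL1 calls were lost without either WT library, and that in KO also without transduced KO. CDK4, at 140.1 to 164 CPM, and MYC, at 121 to 177 CPM, passed in no contrast.

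The fold changes of the mitotic genes moved with exon length. Across the 25 genes, Pearson's r between the log2 fold change and log2 exon length was 0.48, 0.60, 0.29 and 0.50 in KO, L101P, E292V and E690K, as a description of genes that share the same libraries. With a trend over exon length removed from all genes, the members called were 2, 14, 1 and 18 in the same order, and the mitotic medians were 0.18, 0.30, 0.03 and 0.33. Before its removal these medians were 0.18, 0.28, 0.01 and 0.30. Across the 22 S-phase genes Pearson's r was 0.18, 0.08, -0.12 and 0.24 before removal. The share of all genes called after the removal is not given here. The part of exon length in the differences between lines was not tested. Exon bases shared with genes on the opposite strand reached 39.2% for TYMS with ENOSF1, 22.7% for MCM2 with AC023593.1 and 11.6% for PLK1 with AC008870.3, and use of strand in counting is not given in the sources used here.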

How the data were processed

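RNA-seq libraries of 10 A549 cultures were made from total RNA with a total-RNA kit, per the labels' protocols. The values are whole-number counts per gene, deposited by the authors in 1 table with a column for each library, and 0 columns were left unmapped. The submitters' processing notes name GRCh38, Subread, featureCounts, edgeR and limma, without roles. Aligner settings, annotation and strand use are not given in the sources used here. The untreated and transduced libraries of a line are paired because they come from the same line, and line is a term of the fit.

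Counts were tested with edgeR 4.0.16 (R 4.3.3) by the quasi-likelihood test, after filterByExpr and TMM scaling (factors 0.972 to 1.03). The fit of line and vector over 10 libraries has 4 residual degrees of freedom, and the interaction fits have 3. Adjusted p-values are Benjamini-Hochberg values over all genes tested, and the standard error is the size of the fold change over the square root of F. The common dispersion was 0.0168. P-values measure the spread between these libraries, which may be technical. The tests were also run on simulated counts, drawn independently for each library with changes placed in E690K alone. That run does not cover effects shared by the genes of a culture, so nothing is concluded from it here. Alternatives were DESeq2 size factors and its Wald test (DESeq2 1.42.0), other filters on low counts, fits without the vector or the line term, exchanged KO labels, and each library or pair left out. Removal of a trend over exon length was added after seeing the data. Exon lengths and positions are from GENCODE release 29 on GRCh38, promoters from RefSeq.

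The members, lists and alternatives were chosen with earlier results of these data known. Named genes are 19 members fixed by name, members called in any test, the largest change of each phase in each pair, up to 4 called genes per other list and contrast, and 6 regulators (CDKN1A, CDKN1B, CCND1, CDK4, CDK6 and MYC). The neighbours of POLA1, the exon overlaps and the genes named for a lowest or highest level or for nearness to a threshold were chosen after their values were seen.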

Additional observations from a re-analysis of the deposited data

Results flagged for a closer look

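Over 53 sets of 5 pair changes examined for a single extreme value, 1 lay beyond the limit of 0.71 of the range, where chance alone puts about 1 set in 20 there. It was the change of CCNE1 with the vector in WT, -0.14 in log2, against 0.12 to 0.20 in the other 4 lines. CDK6 is listed because its vector effect in L101P differed from that in the other 4 lines by -0.80 in log2 (SE 0.12, edgeR adjusted p 4.8e-04), with the lower level in the transduced library of the L101P pair.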

How the results depend on the processing

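The number of members called against WT moved with the processing. It was 5 in KO and 14 in L101P without a filter on low counts, 6 and 14 in the DESeq2 Wald test, 0 and 4 without the vector term, and 2 and 14 with the trend over exon length removed. With the KO labels exchanged it was 0 in KO, 2 in L101P and 6 in E690K. Leaving out single libraries or pairs gave 0 to 8 in KO, 1 to 18 in L101P, 0 to 1 in E292V and 1 to 20 in E690K. For the vector effect in L101P against the other 4 lines, 0 members became 1 with DESeq2 size factors, 2 without a filter on low counts, 2 in the DESeq2 Wald test, and 0 to 2 when pairs were left out. The vector effect itself gave 0 members in each setting, also without the replicate block of line, where the smallest edgeR adjusted p was 1.00. No direction was reversed among the called genes. The share of all genes called is not set beside these counts, so they do not separate the members from genes in general. Causes of these moves were not tested. The widest half-width of a counting interval was 12.8% of the level, for CCNE2, and the part of depth in these moves was not tested.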

Other observations

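Replication-dependent histone genes, whose transcripts mark S phase but mostly lack poly(A) tails, were read from 71 rows, of which 53 were tested. Their summed level was 100.6 to 127 CPM in the 10 libraries, and 1 gene passed in L101P and 0 in KO, E292V and E690K against WT and with the vector. In L101P 2.33% of all genes were called higher. The histone gene called was HIST2H2BF, named after its value was seen, at a low average level of 1.02 in log2 CPM. HIST2H2BF was 1.36 higher in log2 (SE 0.35, edgeR adjusted p 0.0493). The median log2 fold changes against WT were 0.01, 0.08, -0.15 and -0.09 in KO, L101P, E292V and E690K.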
